A study of Homo sapiens with 8 samples.

Results

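The genes described here are the 4 fibroblast growth factor (FGF) receptors FGFR1, FGFR2, FGFR3 and FGFR4, the ligand FGF2 and the Sprouty genes SPRY1, SPRY2 and SPRY4. They were taken by name, with every probe set that the platform annotation gives to 1 of these symbols alone, which came to 30 probe sets for 8 of the 19775 genes measured. A gene is represented by its main probe set, which is that with the highest average signal on the 8 arrays. For the 8 genes, the other probe sets are given beside it, by their values or as a count. A549, an established line from a human lung adenocarcinoma, was grown as spheroids (3D) made by the hanging droplet technique or as monolayers (2D). The 3D treated and 2D treated cultures received tumor necrosis factor (TNF, 10 ng/mL) and transforming growth factor beta (TGFβ, 2 ng/mL) in 2 rounds of 48 hours, and the 3D control and 2D control cultures received vehicle in their place. Each of the 4 groups has 2 arrays. All groups are the same unmodified line, so every value is from 1 cell line.

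FGF receptors are receptor tyrosine kinases that bind FGF ligands together with heparan sulfate and signal through adaptors to RAS and the kinase ERK. Sprouty proteins are induced by this signal in many cells and inhibit it, which makes them feedback inhibitors. Which receptors an epithelial cell carries, and which splice form of FGFR2, differs between epithelial and mesenchymal cells, and the study used TNF and TGFβ to drive A549 cells from an epithelial towards a mesenchymal state.

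Values are GCRMA expression levels on the log2 scale, so a difference of 1 is a 2-fold change. The arrays' medians lay between 2.43 and 2.50 and the lowest value was 2.23 on each, and a probe set below the array median on both arrays of a group is called near background there. Of the 30 probe sets, 22 lay above the array median on all 8 arrays, and each gene's main probe set was among them. The methods call the arrays of a group technical duplicates and the series' design text calls them biological replicates, so p-values here measure only the spread between these arrays. The epithelial keratin and adhesion genes fixed as markers of the line were above the array median on every array, while the endothelial markers CDH5, VWF, TEK and KDR, the leukocyte markers PTPRC and CD3E and the fibroblast markers DCN, DPT and COL14A1 were below it on every array. The other markers of these cell types were not all at that level. CD14, listed as a leukocyte marker, lay between 5.28 and 9.69 and PECAM1, an endothelial one, between 4.24 and 4.61. LST1, of leukocytes, was below the array median on 1 array and read 2.32 to 3.55. The fibroblast marker LUM was below it on 2 arrays and read 4.52 on 3D treated array 1, where PDGFRA read 3.58 and was below the median on the other 7.

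In 3D cultures, 5 of the 8 genes changed with treatment. FGFR3, FGFR4 and SPRY1 fell, and FGF2 and SPRY2 rose, while FGFR1, FGFR2 and SPRY4 did not pass the test on their main probe sets (limma, adjusted p under 0.05). Over all 19775 genes, 5.53% rose and 10.8% fell in the same comparison, against 2 and 3 of these 8. The main probe sets of these 8 lay above the array median on all 8 arrays. By contrast, 15259 probe sets had the same value on every array and could not be called. With dim probe sets left out, 9395 of 28188 were called in this comparison, and 6 of the 8 genes. The shares over all genes, here and below, include genes read on such unvarying probe sets. They are therefore no matched base for these 8, and neither is the median of all genes. In 2D cultures none of the 8 passed with limma, although 4 had an unadjusted p under 0.05, and there 0.121% of all genes rose and 0.0759% fell. The median log2 fold-change of the 8 genes was 0.32 in 3D and -0.34 in 2D, beside 0 for all genes in both comparisons. In cultures of bulk RNA, fewer cells with a transcript and less of it per cell cannot be told apart.

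**Figure D1:**
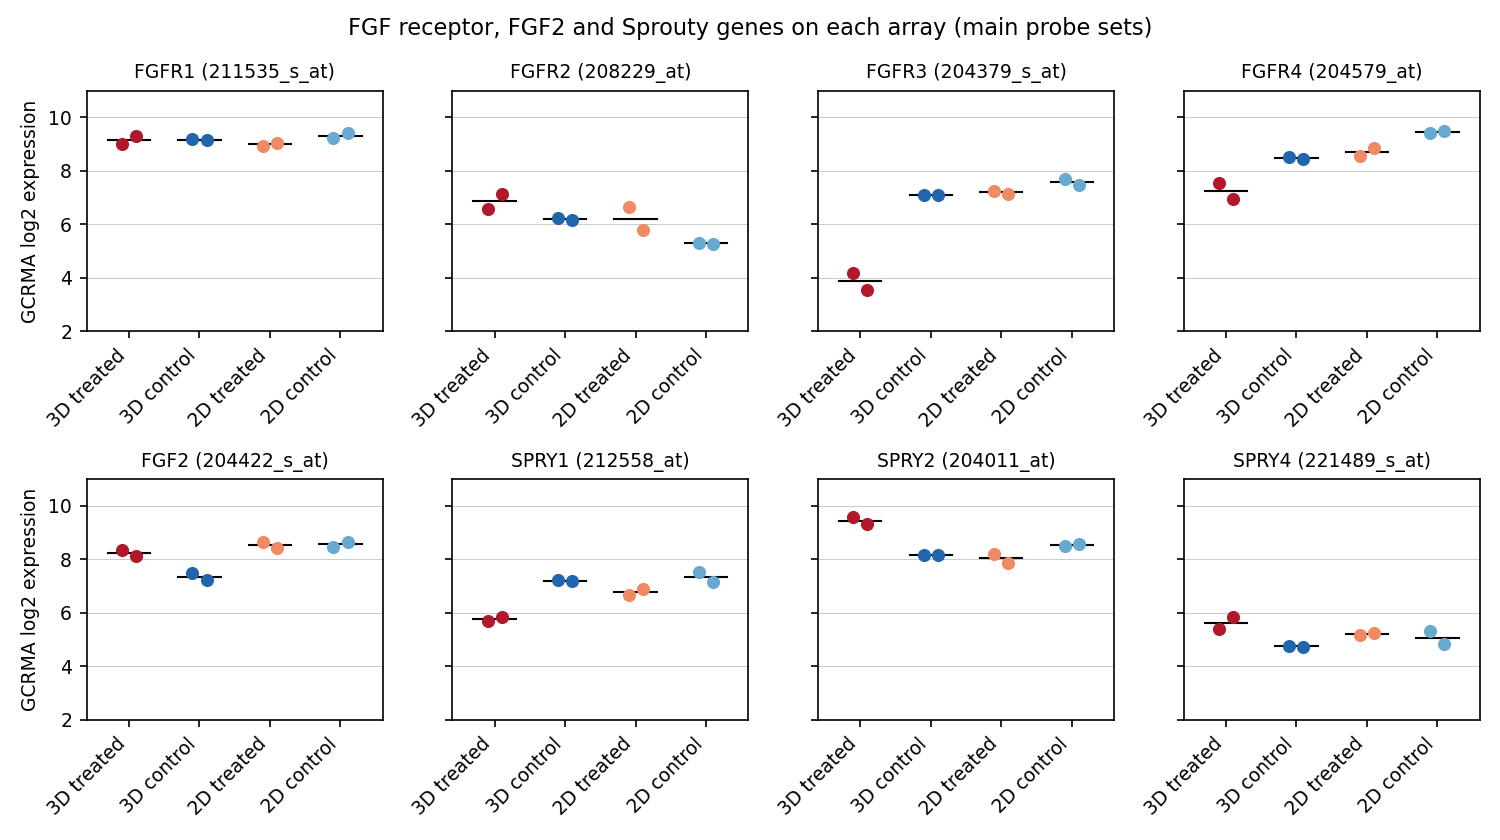
GCRMA log2 expression (vertical axis) of the main probe set of each gene on each of the 8 arrays, by group; points are arrays and lines are group means. FGFR3 stands at 4.19 and 3.56 in 3D treated cultures and at 7.09 or above on the other 6 arrays, and SPRY2 stands at 9.59 and 9.30 in 3D treated cultures and at 8.58 or below elsewhere.

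FGF2, also called basic FGF, is a ligand of the family that binds heparan sulfate and activates several of the receptors. Its main probe set, 204422_s_at, read 8.36 and 8.13 in 3D treated cultures, against 7.48 and 7.22 in 3D control cultures. In monolayers it read 8.63 and 8.43 in 2D treated cultures, against 8.47 and 8.66 in 2D control cultures. The 3D groups did not overlap and the 2D groups did. FGF2 rose by 0.90 in 3D (SE 0.15, adjusted p = 0.0348 by limma), which is 1.86-fold, and differed by -0.04 in 2D (SE 0.15, adjusted p = 1). Without treatment FGF2 was lower in 3D than in 2D cultures, by 1.22 in size (log2 fold-change -1.22, SE 0.15, adjusted p = 0.0255), and with treatment the difference was -0.28 (95% interval -0.69 to 0.12, adjusted p = 0.412). The second probe set, 204421_s_at, read 8.06 and 7.86 in 3D treated cultures, against 6.56 and 6.49 in 3D control cultures, and 7.37 and 7.24 in 2D treated cultures, against 7.03 and 7.11 in 2D control cultures. On that probe set FGF2 rose by 1.43 in 3D (SE 0.09, adjusted p = 0.00438), and the untreated 3D cultures were again lower than the 2D ones (-0.55, adjusted p = 0.0414). The 2 probe sets had opposite signs for treated cultures, where the second was higher in 3D than in 2D (0.66, adjusted p = 0.0145) and the main one read the other way without passing. The 3D call of the main probe set was lost when any 1 of the 8 arrays was left out (adjusted p between 0.0653 and 0.124), whereas the second passed in each of these 8 fits (0.00317 to 0.0207). For the second probe set the untreated call was lost without any 1 array (0.051 to 0.162) and the treated one without 2D treated array 2 (0.0683).

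FGFR1, the receptor most often linked with mesenchymal cells, differed little between groups on its main probe set. This probe set, 211535_s_at, read 9.01 and 9.30 in 3D treated cultures, against 9.18 and 9.14 in 3D control cultures, and 8.93 and 9.05 in 2D treated cultures, against 9.23 and 9.40 in 2D control cultures. The 3D groups overlapped, with a log2 fold-change of -0.01 (95% interval -0.33 to 0.31, adjusted p = 1). In 2D it was -0.32 (SE 0.12, adjusted p = 0.62), with the treated arrays below both control arrays. Of its other 6 probe sets 5 were above the array median on all arrays and none passed in any of the 5 comparisons. Some of these 5 read low, with 2.53 to 2.88 on 215404_x_at, close to the array median, and 3.27 to 4.10 on 207937_x_at. The widest range among the other probe sets was that of 226705_at. It read 5.86 and 6.13 in 3D treated cultures, against 5.97 and 6.38 in 3D control cultures, and 6.43 and 6.48 in 2D treated cultures, against 7.36 and 7.08 in 2D control cultures. On that probe set the untreated 3D cultures were 1.05 below the untreated 2D cultures in log2 (log2 fold-change -1.05, SE 0.19, adjusted p = 0.0559).

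FGFR2, whose splice forms differ between epithelial and mesenchymal cells, gave different readings on different probe sets. The main one, 208229_at, read 6.58 and 7.12 in 3D treated cultures, against 6.25 and 6.17 in 3D control cultures, and 6.64 and 5.77 in 2D treated cultures, against 5.30 and 5.26 in 2D control cultures. Treated arrays were above control arrays in both culture types, with log2 fold-changes of 0.64 in 3D (SE 0.35, adjusted p = 0.471) and 0.92 in 2D (SE 0.35, adjusted p = 0.64). A pair of other probe sets with nearly the same mean ran the other way in 3D. 203638_s_at read 4.28 and 4.00 in 3D treated cultures, against 6.71 and 6.50 in 3D control cultures, and 6.82 and 6.05 in 2D treated cultures, against 7.17 and 6.02 in 2D control cultures. 208228_s_at read 3.35 and 4.35 in 3D treated cultures, against 6.80 and 6.58 in 3D control cultures, and 6.58 and 5.95 in 2D treated cultures, against 6.89 and 5.69 in 2D control cultures. On both, the 3D treated arrays were the lowest of the 8, and the 2D groups overlapped. The 3D differences of -2.46 (SE 0.48, adjusted p = 0.0513) and -2.84 (SE 0.58, adjusted p = 0.0559) did not reach the threshold. They passed it with the intensity trend in limma's variance prior (adjusted p = 0.0409 and 0.0448), with array medians subtracted (0.0286 and 0.0302) and with dim probe sets left out (0.0109 and 0.012). They did not with quantile normalization (0.0557 and 0.0638) or only the 4 spheroid arrays (0.0678 and 0.156). With the replicate number as a block only 203638_s_at passed (0.0415, against 0.113). Over all alternatives the adjusted p was 0.0109 to 0.192 on the first and 0.012 to 0.204 on the second. Against 2D treated cultures 203638_s_at was lower in 3D treated cultures by 2.29 in size (log2 fold-change -2.29, SE 0.48, adjusted p = 0.0465), a call that was lost without any 1 of the 6 arrays other than the 2D control ones (adjusted p between 0.094 and 0.171). A further probe set, 203639_s_at, read 2.66 and 2.67 in 3D treated cultures, against 4.33 and 3.52 in 3D control cultures (log2 fold-change -1.26, adjusted p = 0.176). Of the 11 FGFR2 probe sets, 6 were above the array median on all arrays, and 3 had 1 value on all 8 arrays. The last 2 of these 6, 211401_s_at and 208234_x_at, overlapped between the 3D groups (log2 fold-changes -0.20 and -0.02, adjusted p = 0.536 and 1). The annotation used gives no exon for a probe set, so which FGFR2 transcripts each one reads was not analysed here.

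**Figure D2:**
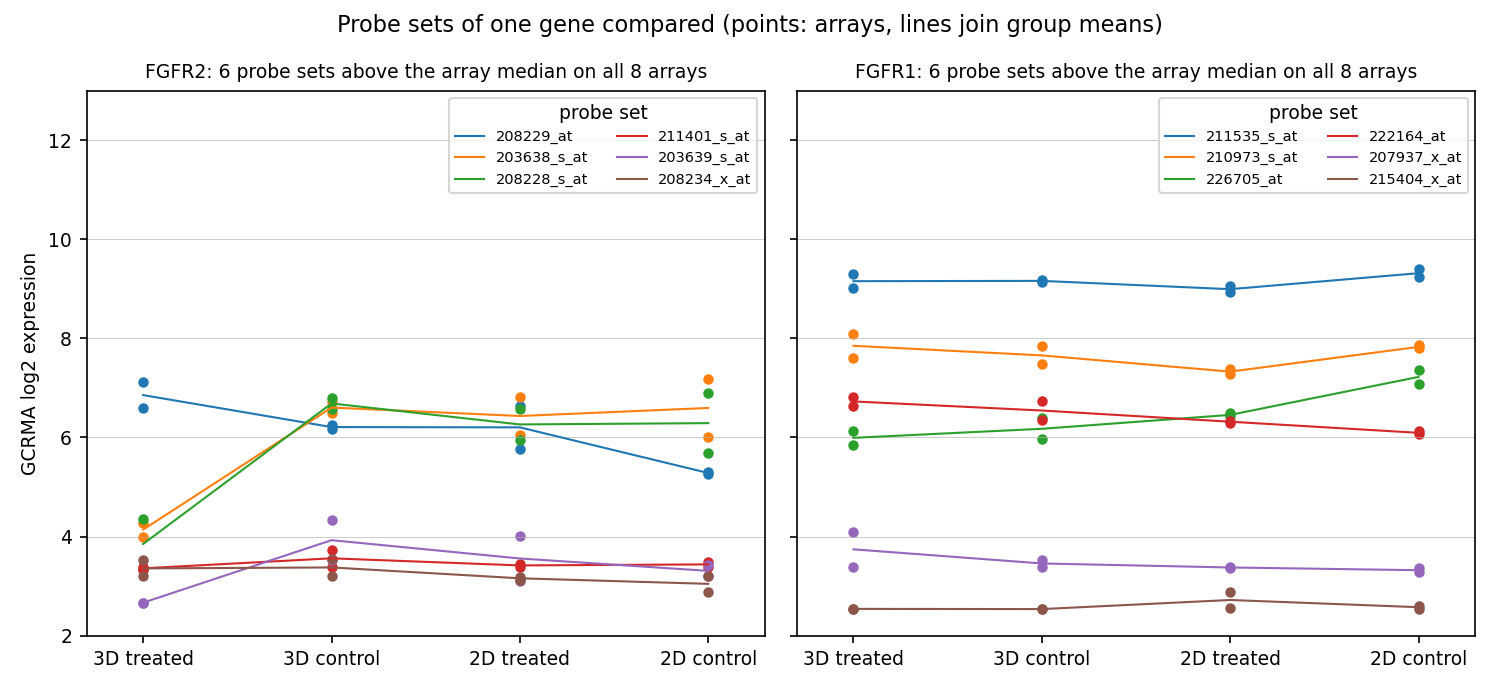
GCRMA log2 expression (vertical axis) of the 6 FGFR2 and 6 FGFR1 probe sets that lay above the array median on all 8 arrays, by group; points are arrays and lines join the group means of a probe set. FGFR2 probe sets 203638_s_at and 208228_s_at drop to between 3.35 and 4.35 in 3D treated cultures, where 208229_at stands at 6.58 and 7.12.

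FGFR3 had the largest log2 fold-change in size of the 8 genes. In lung and other epithelia it is one of the receptors found on epithelial cells. Its main probe set, 204379_s_at, read 4.19 and 3.56 in 3D treated cultures, against 7.11 and 7.09 in 3D control cultures, and 7.25 and 7.15 in 2D treated cultures, against 7.68 and 7.45 in 2D control cultures. The 3D treated arrays were far below the other 6, which lay between 7.09 and 7.68. FGFR3 fell in 3D by 3.22 (SE 0.23, adjusted p = 0.00602 by limma), a 9.33-fold difference, and the 2D difference was -0.37 (95% interval -0.99 to 0.26, adjusted p = 0.92). The difference between the 3D and 2D responses itself was -2.85 (SE 0.33, adjusted p = 0.0391). Among treated cultures, 3D was lower than 2D by 3.32 in size (log2 fold-change -3.32, SE 0.23, adjusted p = 0.00411), and among untreated ones the difference was -0.47 (95% interval -1.09 to 0.15, adjusted p = 0.433). The 3D call held in each fit that left out 1 array (adjusted p between 0.000915 and 0.0296) and was lost in a fit of the 4 spheroid arrays alone (0.0876), against a range of 0.000784 to 0.0876 over all alternatives. The second FGFR3 probe set was below the array median on all arrays.

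FGFR4, a receptor with a high affinity for the endocrine ligand FGF19, also read lowest in treated spheroids. Its main probe set, 204579_at, read 7.54 and 6.94 in 3D treated cultures, against 8.51 and 8.43 in 3D control cultures, and 8.57 and 8.84 in 2D treated cultures, against 9.41 and 9.47 in 2D control cultures. No 2 groups overlapped, and the order was 2D control, 2D treated, 3D control and 3D treated from high to low, with 2D treated and 3D control arrays only 0.06 apart at their closest. FGFR4 fell in 3D by 1.23 (SE 0.22, adjusted p = 0.0431), or 2.34-fold, and the 2D difference was -0.74 (SE 0.22, adjusted p = 0.479). The 2 responses differed by -0.49 (95% interval -1.35 to 0.36, adjusted p = 0.716), so a different response in the 2 culture types was not shown. Treated 3D cultures were lower than treated 2D cultures (-1.46, SE 0.22, adjusted p = 0.0205), and untreated 3D cultures read lower than untreated 2D cultures without passing (-0.97, SE 0.22, adjusted p = 0.0913). The next probe set, 211237_s_at, read 5.50 and 5.43 in 3D treated cultures, against 6.56 and 6.20 in 3D control cultures, and 6.56 and 6.88 in 2D treated cultures, against 7.51 and 7.19 in 2D control cultures. Its group means stood in the same order, with a 3D difference of -0.91 (adjusted p = 0.0641) and a treated 3D to 2D difference of -1.25 (adjusted p = 0.0218), a call that was lost without any 1 of the treated arrays (0.0528 to 0.0914). Another probe set, 1554962_a_at, was lower in untreated 3D than in untreated 2D cultures (-0.71, adjusted p = 0.0301) and showed -0.09 for treatment in 3D (adjusted p = 0.784). Its 2D difference was -0.63 (adjusted p = 0.167). The 2 responses differed there by 0.54 (adjusted p = 0.159), with a sign opposite to that of the main probe set. On 1554961_at, near the array median throughout, the treatment difference in 3D was -0.03 (adjusted p = 0.834). The 3D call of the main probe set was lost without any 1 of the 6 arrays other than the 3D treated ones. A fit without a 3D treated array drops the spread of that group, which was the widest (SD 0.42, against 0.05 in 3D control, 0.19 in 2D treated and 0.05 in 2D control cultures). That the call passed in those fits is therefore no sign of stability, and the same holds for the call between treated 3D and 2D cultures.

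SPRY1 and SPRY2, both inhibitors of signaling from receptor tyrosine kinases to ERK, moved in opposite directions in treated 3D cultures. SPRY1 on 212558_at read 5.69 and 5.85 in 3D treated cultures, against 7.22 and 7.18 in 3D control cultures, and 6.66 and 6.89 in 2D treated cultures, against 7.51 and 7.15 in 2D control cultures. The treated arrays were below the control arrays in both culture types, and further below in 3D. SPRY1 fell in 3D by 1.43 (SE 0.15, adjusted p = 0.0132), or 2.69-fold, and the 2D difference was -0.55 (SE 0.15, adjusted p = 0.421). The test of the difference between the 2 responses did not pass (-0.88, 95% interval -1.46 to -0.29 before adjustment, adjusted p = 0.154). Treated 3D cultures were lower than treated 2D cultures by 1.01 in size (log2 fold-change -1.01, SE 0.15, adjusted p = 0.0203). The 3D call was lost without either 3D control array (adjusted p = 0.0625 and 0.0609). The second SPRY1 probe set, 230212_at, read 3.07 and 3.34 in 3D treated cultures, against 3.34 and 4.09 in 3D control cultures. Its groups overlapped in both culture types, with log2 fold-changes of -0.51 in 3D (SE 0.27, adjusted p = 0.473) and -0.07 in 2D (adjusted p = 1), so the SPRY1 call rests on 1 probe set.

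SPRY2 on its only probe set, 204011_at, read 9.59 and 9.30 in 3D treated cultures, against 8.16 and 8.16 in 3D control cultures, and 8.21 and 7.86 in 2D treated cultures, against 8.50 and 8.58 in 2D control cultures. In 3D the treated arrays were the highest of the 8, and in 2D they were below the control arrays. SPRY2 rose in 3D by 1.29 (SE 0.16, adjusted p = 0.0166), or 2.44-fold, and differed by -0.50 in 2D (SE 0.16, adjusted p = 0.495). The 2 responses differed by 1.78 (SE 0.22, adjusted p = 0.0443). Treated 3D cultures were higher than treated 2D cultures by 1.41 (SE 0.16, adjusted p = 0.00954), and untreated ones differed by -0.38 (95% interval -0.80 to 0.04, adjusted p = 0.309). Without either 3D control array the adjusted p of the 3D response was 0.075 and 0.0764, and without either 2D control array it was 0.0502.

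SPRY4, another member of the family, read 5.40 and 5.84 in 3D treated cultures, against 4.75 and 4.73 in 3D control cultures, and 5.16 and 5.24 in 2D treated cultures, against 5.31 and 4.84 in 2D control cultures. Its 3D groups did not overlap and its 2D groups did. The log2 fold-change was 0.88 in 3D (95% interval 0.28 to 1.47, adjusted p = 0.0937) and 0.13 in 2D (adjusted p = 1), so SPRY4 did not pass in either. With probe sets below the array median on most arrays left out before adjustment, the 3D change passed (adjusted p = 0.0254, in a range of 0.0254 to 0.285 over all alternatives).

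**Figure D3:**
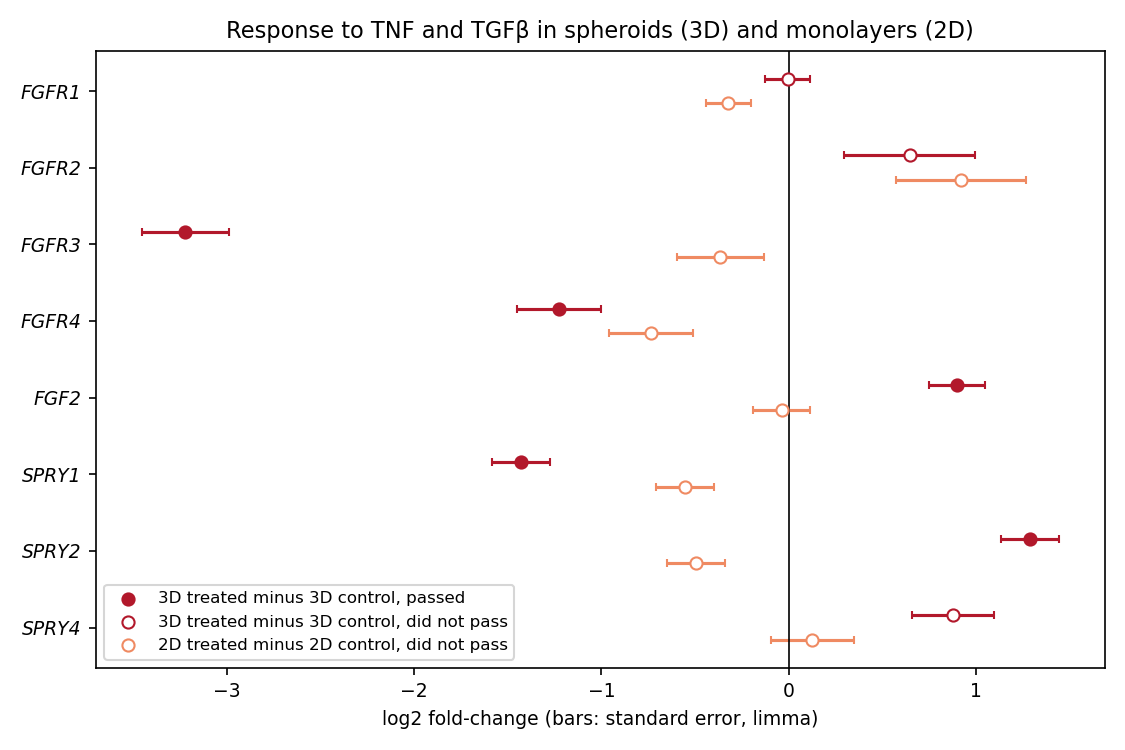
Log2 fold-change (horizontal axis) of each gene's main probe set for 3D treated minus 3D control and, below it, for 2D treated minus 2D control; bars are standard errors from limma and filled points passed an adjusted p of 0.05. FGFR3 stands at -3.22 in 3D and -0.37 in 2D, and SPRY2 stands at 1.29 in 3D and -0.50 in 2D.

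The question whether the 2 culture types responded differently was put to the difference between the responses. It passed for FGFR3, which had the more negative response in 3D, and for SPRY2, which had the more positive one, so 1 gene of 8 differed in each direction. Among all genes 1.32% had a significantly higher and 1.94% a significantly lower response in 3D than in 2D. FGF2 did not pass on its main probe set (0.94, adjusted p = 0.131) and passed on the second (1.20, SE 0.12, adjusted p = 0.0323). The response of FGFR2 differed by -2.30 and -2.81 on the 2 probe sets that read lowest in 3D treated cultures, without passing (adjusted p = 0.215 and 0.205). With 1 array left out, the difference lay between -3.17 and -2.54 for FGFR3 and between 1.10 and 1.30 for FGF2 on 204421_s_at. Both calls were lost without any 1 array outside the 3D treated group. A fit without a 3D treated array drops the spread of that group, which was the widest for both (SD 0.45 for FGFR3 and 0.14 for FGF2). That the calls passed in those fits is therefore no sign of stability. The call for SPRY2 was lost without either 3D control array, either 2D control array or 2D treated array 2 (0.0565 to 0.107).

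Between untreated 3D and 2D cultures FGF2 was the only 1 of the 8 to pass, and it was lower in 3D, while 5.77% of all genes were higher and 4.90% lower. Between treated 3D and 2D cultures SPRY2 was higher and FGFR3, FGFR4 and SPRY1 were lower, against 9.06% of all genes higher and 14.5% lower. The comparisons share arrays, so these calls and those for treatment in 3D are not independent. The untreated call for FGF2 was lost without any 1 array (adjusted p between 0.0509 and 0.0923). Among treated cultures the calls for FGFR3 and SPRY2 held in all 8 such fits (0.000823 to 0.0226 and 0.0192 to 0.0369), while FGFR4 was lost without any array outside the 3D treated group (0.0576 to 0.0964) and SPRY1 without any array outside the 2D control group (0.0555 to 0.0905).

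The order of the 4 groups differed between the genes. FGFR3 and FGFR4 were highest in 2D control cultures, then 2D treated, 3D control and 3D treated cultures, with no overlap between neighbours. SPRY1 ran from 2D control over 3D control and 2D treated to 3D treated cultures, and both control groups overlapped. FGF2 ran from 2D control over 2D treated and 3D treated to 3D control cultures, and both 2D groups overlapped. SPRY2 ran from 3D treated over 2D control and 3D control to 2D treated cultures, of which the last 2 overlapped. SPRY4 was also highest in 3D treated cultures, and its 2D groups overlapped. FGFR2 on its main probe set had its highest mean in 3D treated cultures, whose arrays overlapped the 2D treated ones, as did the 3D control arrays. On 203638_s_at and 208228_s_at FGFR2 was lowest in 3D treated cultures instead. FGFR1 had its highest mean in 2D control cultures, whose arrays overlapped the 3D treated ones, and its other 3 groups overlapped in turn.

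The sequence just before the transcription start is shown for the 5 genes that changed in 3D cultures, as the lower group (FGFR3, FGFR4, SPRY1) and the higher group (FGF2, SPRY2) have opposite signs and can be read side by side. The windows hold 250 bases upstream of a RefSeq start in GRCh38.p14, written 5′ to 3′ on the gene's strand, and for a gene with several starts the one with the most motif matches is printed. RefSeq promoters were found for 7 of the 8 genes, in 15 windows. Capitals mark every match, on either strand, of 4 motifs: CCGGAA (the core bound by ETS factors), TGANTCA (AP-1), CACCTG (an E-box bound by SNAIL and ZEB factors) and GGGCGG (the GC box bound by SP factors). The windows lie at chr4:1793043-1793292 (+) for FGFR3, chr5:177086665-177086914 (+) for FGFR4, chr4:123398136-123398385 (+) for SPRY1, chr4:122826581-122826830 (+) for FGF2 and chr13:80341127-80341376 (-) for SPRY2.
FGFR3: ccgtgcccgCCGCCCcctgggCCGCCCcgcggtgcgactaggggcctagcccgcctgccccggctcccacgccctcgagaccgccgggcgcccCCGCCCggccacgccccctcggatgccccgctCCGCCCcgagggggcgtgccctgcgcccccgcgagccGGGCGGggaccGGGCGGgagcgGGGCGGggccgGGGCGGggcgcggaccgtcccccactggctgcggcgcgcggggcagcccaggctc
FGFR4: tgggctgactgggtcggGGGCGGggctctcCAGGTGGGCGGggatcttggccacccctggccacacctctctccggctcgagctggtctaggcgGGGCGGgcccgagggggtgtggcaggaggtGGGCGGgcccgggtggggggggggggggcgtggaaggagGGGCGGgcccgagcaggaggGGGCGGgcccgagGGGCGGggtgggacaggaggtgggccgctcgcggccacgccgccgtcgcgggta
SPRY1: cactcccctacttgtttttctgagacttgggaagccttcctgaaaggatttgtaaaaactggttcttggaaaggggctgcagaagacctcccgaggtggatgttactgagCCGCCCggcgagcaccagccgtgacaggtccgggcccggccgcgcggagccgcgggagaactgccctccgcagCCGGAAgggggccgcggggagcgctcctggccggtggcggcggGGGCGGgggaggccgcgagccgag
FGF2: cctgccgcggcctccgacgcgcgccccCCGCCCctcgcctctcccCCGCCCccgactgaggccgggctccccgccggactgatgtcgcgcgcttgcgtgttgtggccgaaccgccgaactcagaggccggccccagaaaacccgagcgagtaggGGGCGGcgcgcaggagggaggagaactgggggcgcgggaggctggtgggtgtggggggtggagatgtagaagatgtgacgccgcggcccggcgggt
SPRY2: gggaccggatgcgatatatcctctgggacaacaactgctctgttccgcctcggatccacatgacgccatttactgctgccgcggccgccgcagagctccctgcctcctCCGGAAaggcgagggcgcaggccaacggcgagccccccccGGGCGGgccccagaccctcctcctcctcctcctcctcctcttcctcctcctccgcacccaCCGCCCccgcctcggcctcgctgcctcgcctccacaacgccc

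The FGFR3 window held 8 GC boxes and no other match. The FGFR4 window held 7 GC boxes and 1 CACCTG match, which overlaps a GC box. The FGF2 window held 3 GC boxes, and the SPRY1 and SPRY2 windows each held 2 GC boxes and 1 ETS core, although these 2 genes changed in opposite directions. Over all 15 windows, GGGCGG was found in 8, CCGGAA in 2, CACCTG in 2 and TGANTCA in 0. Of 35116 promoter windows of the same length, 42.6% held GGGCGG, 14.5% CCGGAA, 17.5% CACCTG and 6.57% TGANTCA. A match describes letters in the window and not a bound site.

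Around these 8 genes, 64 of 71 listed pathway genes were measured, of which 11 rose and 5 fell in 3D, where 5.53% of all genes rose and 10.8% fell. The lists were chosen with results known and nothing particular to them is read from these counts. Unlike the calls of the 8 genes, calls of listed genes and markers were not rechecked under other settings or with arrays left out. Listed genes and markers were read on the main probe set alone, and whether any other probe sets of them read alike was not examined. None of the 64 passed in 2D with limma, where 12 had an unadjusted p under 0.05. Of 14 other FGF ligands measured, 9 were near background on all 8 arrays and 1 rose in 3D. This was FGF1, a ligand for all FGF receptors, which read 7.55 and 5.36 in 3D treated cultures, against 2.23 on the other 6 arrays, at least 16.3-fold higher than in 3D control cultures (adjusted p = 0.0394). The 3D treated arrays of FGF1 were far apart, and both were above all others. The other 6 arrays all stood at the lowest value of an array. Their groups therefore added no spread to the pooled estimate behind this p-value, which makes it too small to be read closely.

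Of 12 co-receptors and FGF-binding proteins, 2 rose in 3D and none fell. Both carry heparan sulfate chains, to which FGFs bind. SDC4 (syndecan 4) read 12.75 and 12.59 in 3D treated cultures, against 9.71 and 9.62 in 3D control cultures, a log2 fold-change of 3.00 (SE 0.17, adjusted p = 0.00366). HSPG2 (perlecan) averaged 8.00 in 3D treated and 6.29 in 3D control cultures (1.71, SE 0.29, adjusted p = 0.0352). In monolayers it read 7.96 and 7.96 in 2D treated cultures, against 7.72 and 8.49 in 2D control cultures. The 3D control arrays of HSPG2 were thus the lowest of the 8, and the 3D treated arrays lay near the level of monolayers.

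Among signal carriers, 1 of 9 measured adaptors and effectors rose and 1 fell in 3D. CBL, a ubiquitin ligase that acts on activated receptors, rose by 0.77 (adjusted p = 0.0128) and the adaptor SHC1 fell by 0.54 (adjusted p = 0.0457). Of 6 measured kinases and RAS genes between RAS and ERK, MAP2K1 (the kinase MEK1) rose by 1.25 (adjusted p = 0.0153) and ARAF fell by 0.35 (adjusted p = 0.0122).

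Of 11 other feedback inhibitors measured, 3 rose and 1 fell in 3D. NF1, which switches RAS off, averaged 9.21 in 3D treated and 6.71 in 3D control cultures (log2 fold-change 2.50, SE 0.29, adjusted p = 0.0156). DUSP5, a nuclear phosphatase of ERK, read 12.06 and 12.71 in 3D treated cultures, against 10.06 and 10.65 in 3D control cultures (2.03, adjusted p = 0.0295). IL17RD, a membrane inhibitor of FGF signaling also known as SEF, rose by 1.91 (adjusted p = 0.0342), and the phosphatase DUSP4 fell by 0.88 (adjusted p = 0.0244). The list therefore held members moving both ways, as the Sprouty genes did, and its median log2 fold-change was 0.29.

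Of 8 genes listed as transcription factors or targets downstream of ERK, 3 rose and 2 fell in 3D. SPHK1, a kinase that makes sphingosine 1-phosphate, read 8.79 and 8.73 in 3D treated cultures, against 4.48 and 4.67 in 3D control cultures (log2 fold-change 4.18, SE 0.24, adjusted p = 0.00387), and PHLDA1 rose by 1.96 (adjusted p = 0.00303). ETV1, an ETS factor downstream of FGF signaling, fell by 1.92 (adjusted p = 0.0362) and FLRT3, a membrane protein that binds FGF receptors, fell by 1.66 (adjusted p = 0.0178). Of 5 regulators of FGFR2 exon splicing, 4 were measured and none passed in 3D with limma, although 2 had an unadjusted p under 0.05. ESRP1, an epithelial splicing factor, was near background on all 8 arrays.

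**Figure D4:**
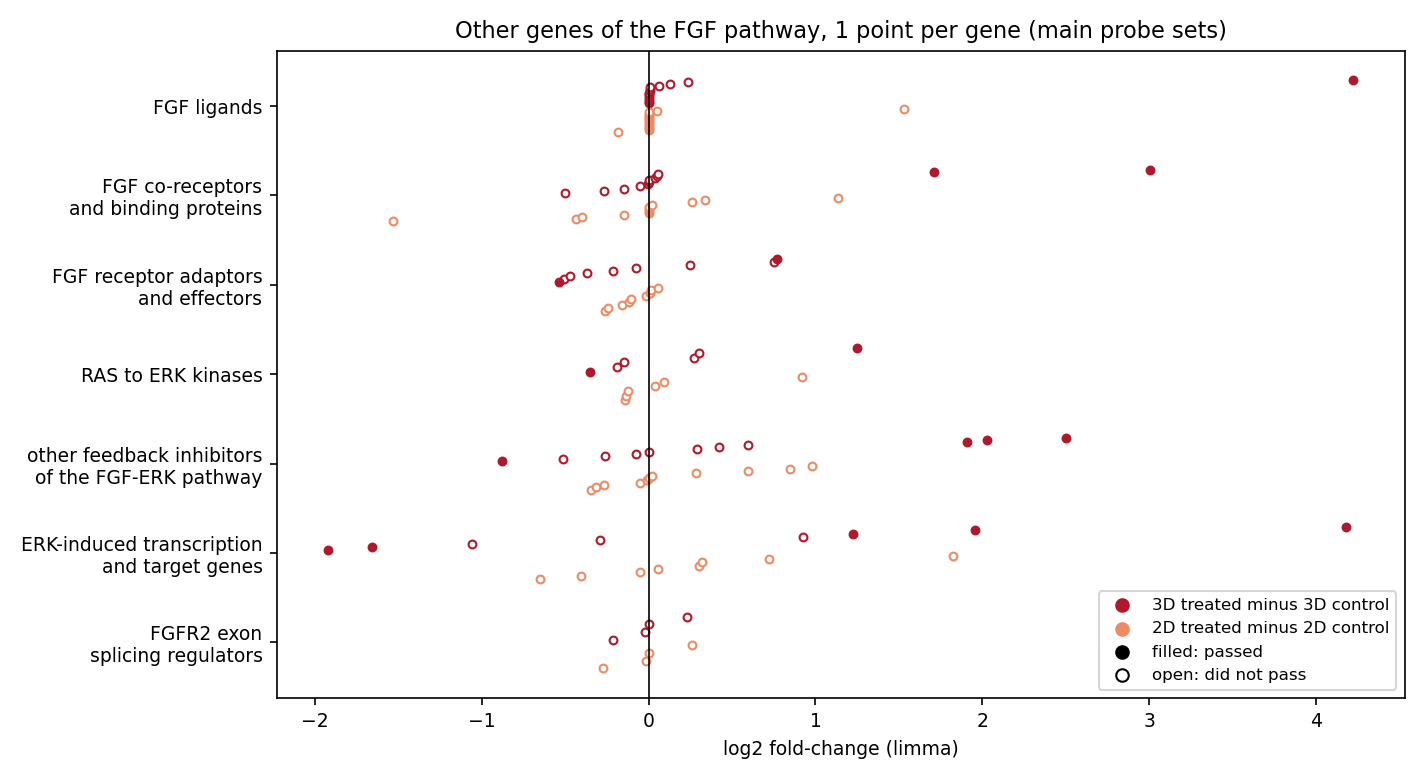
Log2 fold-change (horizontal axis) of every measured gene of 7 pathway lists, 3D treated minus 3D control above and 2D treated minus 2D control below in each list; filled points passed an adjusted p of 0.05, and most open points crowded at 0 in the ligand list are genes near background. Passing genes appear in 3D only, with SPHK1 at 4.18 and ETV1 at -1.92, and the point of FGF1 at the far right is set against a level near background and has no measured place relative to SPHK1.

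Most epithelial markers were lower in the same cultures as FGFR3 and FGFR4. Of 6 measured, 4 were lower in 3D treated than in 3D control cultures and none was higher by the test, and the mean level of the 6 per array was 10.94 to 10.99 in 3D treated cultures, against 11.68 to 11.76 in 3D control cultures. EPCAM fell by 2.20 (adjusted p = 0.0402) and CDH1 (E-cadherin) by 0.91 (adjusted p = 0.0155). KRT7, a keratin of simple epithelia, ran the other way without passing, with 12.44 and 12.05 in 3D treated cultures, against 11.25 and 11.42 in 3D control cultures (log2 fold-change 0.91, SE 0.19, adjusted p = 0.0592). In 2D none of the 6 passed with limma, although 3 had an unadjusted p under 0.05, and their mean level was 11.2 on both 2D treated arrays, against 11.7 on both 2D control arrays. The part of this shift in the changes of FGFR3, FGFR4 and SPRY1 was not tested. The mean of the 5 fibroblast markers was 2.37 and 3.02 on the 3D treated arrays, against 2.27 to 2.35 in 3D control cultures, and that of the 5 endothelial markers was 2.72 to 2.73, against 2.69 to 2.71. No fibroblast, endothelial or leukocyte marker passed as higher there, and CD14 fell by 2.86 (adjusted p = 0.0477).

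For each of the 6 genes whose 4 group means spanned at least 1 in log2, the 3 genes with the most similar profile over the 8 arrays were taken, by the root mean square difference after each gene's own mean was removed. The nearest to FGFR3 were RNF43, MYO5C and GYG2 (0.21 to 0.25) and to FGFR4 were MRPL24, TBL1X and GALNT7 (0.11 to 0.15). For SPRY1 they were ZFP62, ALDH7A1 and LEO1 (0.08 to 0.13) and for SPRY2 SULF2, NGEF and ADA (0.14 to 0.17). SULF2 is an extracellular enzyme that removes sulfate groups from heparan sulfate. For FGF2 they were TNS4, LAMC1 and SLC30A7 (0.10 to 0.12), and for FGFR2, on its main probe set, TESK2, ZNF385A and HBE1 (0.19 to 0.22). The 8 arrays form 4 groups of 2, so a like profile rests on few independent points.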

How the data were processed

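RNA of A549 cultures was measured on 8 arrays (Affymetrix U133 plus 2.0), 2 for every group. The authors made the deposited log2 values with GCRMA, a background correction by probe sequence followed by normalization and 1 summary value per probe set, and the submitters' processing notes name limma 3.6.9. The values were used as deposited. After 62 control probe sets were dropped, 54613 were tested, of which 41091 carry 1 gene symbol, 1801 several and 11721 none.

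Means of the 4 groups were estimated from all 8 arrays in 1 model with limma 3.58.1 (R 4.3.3), whose moderated test gave the p-values, and these were adjusted by Benjamini-Hochberg across every tested probe set, with 0.05 as the threshold. Degrees of freedom were 4 residual and 0.347 prior. The code was tested on simulated data. The number of arrays limits the precision. Where a group was near background, the fold is a lower bound against the array median.

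The genes, pathway lists and markers were chosen with earlier results of these data known. All 8 genes are named, of each pathway list at most the 4 with the largest change among those that passed in 3D, and the 3 most similar profiles. The alternatives tried were an intensity trend, quantile normalization, medians subtracted, a filter on dim probe sets, the replicate number as a block, only the 4 arrays compared, the probe set with the largest change, and each array left out. They were applied to the 8 genes and to counts over all probe sets, and not to single genes of the pathway lists or markers.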

Additional observations from a re-analysis of the deposited data

Results flagged for a closer look

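The test of a different response to TNF and TGFβ in 3D and 2D cultures passed for 3 of the 30 probe sets, beside 1268 of all 54613 (limma interaction term, 3D response minus 2D response). That of FGF2 is not its main probe set. With the replicate number as a block in limma, all 3 calls were lost (adjusted p = 0.0834 for SPRY2, 0.0666 for FGFR3 and 0.0676 for FGF2). SPRY2 on 204011_at differed by 1.78 (SE 0.22, adjusted p = 0.0443), FGFR3 on 204379_s_at by -2.85 (SE 0.33, adjusted p = 0.0391) and FGF2 on 204421_s_at by 1.20 (SE 0.12, adjusted p = 0.0323). For SPRY2 both 3D treated arrays were above the 3D control arrays and both 2D treated arrays were below the 2D control arrays. For FGFR3 the treated arrays were lower in both culture types, and for FGF2 on this probe set they were higher in both.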

How the results depend on the processing

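With 2 arrays a group, most calls depended on the spread pooled over all 8 arrays. In a fit of only the 4 arrays compared, 0 of the 8 genes passed for treatment in 3D (5 in the full fit), 0 for untreated 3D against 2D (1) and 0 for treated 3D against 2D (4). With 1 array left out in turn, with the lone array of its group assumed to vary like the others, 1 to 4 genes passed for treatment in 3D, 0 to 2 for the difference of the responses (2 in the full fit), 0 for untreated 3D against 2D, 2 to 3 for treated 3D against 2D and 0 for treatment in 2D.

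Deviations of samples with the same replicate number had correlations between -0.0148 and 0.283 over 28188 probe sets, with 1 of 6 pairs over 0.1. That pair was 2D treated and 2D control, so 2D arrays of the same number deviated together in part. What these arrays share beyond the number was not tested. With the number as a replicate block, 3 genes passed for treatment in 3D (FGFR3, SPRY1 and SPRY2), 0 for the difference, 0 for untreated 3D against 2D, 2 for treated 3D against 2D and 0 for treatment in 2D. With dim probe sets left out, 2 genes passed for untreated 3D against 2D, FGF2 and FGFR4. Over all probe sets, the 5919 called for treatment in 3D became 3883 with the block, 981 with 4 arrays and 9395 with the filter, the 1268 called for the difference became 480 with the block, 3972 with the filter and 2670 with medians subtracted, and the 100 called in 2D became 29, 444 and 217, and 19 with 4 arrays. The 3983 called for untreated 3D against 2D became 1788 with the block, 478 with 4 arrays and 7858 with the filter, and the 8925 for treated 3D against 2D became 679 with 4 arrays. Without 1 array they were 3630 to 7906, 1414 to 5216, 37 to 1585, 2143 to 3636 and 5437 to 10322 in the same order. The intensity trend, quantile normalization and subtracted medians left each count of genes as it was.

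Directions turned only for differences that did not pass in the full fit. Quantile normalization turned FGFR1 in 3D to 0.081 and FGFR2 on 208228_s_at in 2D to 0.013. Taking the probe set with the largest change turned FGFR1 to 0.28 in 3D, 0.055 in 2D and 0.14 for untreated 3D against 2D, FGFR2 to -2.84 in 3D, -0.026 in 2D and -2.41 for treated 3D against 2D, and FGF2 to 0.23 in 2D and to 0.66 for treated 3D against 2D. With 1 array left out, the ranges that crossed 0 were -0.15 to 0.14 for FGFR1 in 3D, -0.14 to 0.061 for FGF2 and -0.11 to 0.36 for SPRY4 in 2D, -0.71 to 0.16 for the difference of the FGFR2 responses, and -0.31 to 0.046 for SPRY1 in untreated 3D against 2D. They were -0.74 to 0.41 and -0.63 to 0.57 in 2D for FGFR2 on 203638_s_at and 208228_s_at, and -0.57 to 0.58 and -0.20 to 0.998 for untreated 3D against 2D. They were also -0.39 to 0.026 for FGFR1 on 226705_at in 3D and -0.20 to 0.70 for FGFR2 on 203639_s_at in 2D. The causes were not tested.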
